A study of Mus musculus with 36 samples.

Results

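The mitochondrial ribosomal protein genes are the nuclear genes that encode the protein part of the ribosome inside mitochondria, named Mrpl for the large and Mrps for the small subunit. They were taken here as every non-control probe whose gene name on the array starts with Mrpl or Mrps followed by a number, which gave 125 probes for 75 genes (46 Mrpl and 29 Mrps) of 27745 named on the array. Of these 75 members, 42 had 1 probe and 33 had between 2 and 4, and the probe with the highest mean intensity stood for its gene. All 75 passed the filter on dim probes, a Cy5 signal well above background on at least 9 of the 12 arrays of at least 1 group, and did so in each of the 3 groups.

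The samples were epididymal white adipose tissue, a fat depot beside the epididymis, from 36 adult male C57BL/6J mice, each hybridised in Cy5 to its own 2-colour Agilent array against a Cy3 pool made from all the samples. HF-DR mice (n = 12) were given a purified diet with 30 energy% fat for 12 weeks in a restricted amount, stated as 70 en%, with a vitamin and mineral premix added in proportion. HF-AL mice (n = 12) ate that diet freely for the same 12 weeks, and t0 mice (n = 12) were killed before those weeks began. Every group had first eaten the diet freely during 3 weeks of adaptation, and no group had a low-fat diet. Values are log2 ratios of a mouse to the pool, so 0 means the level of the pool and 1 a doubling, and groups are compared by their mean ratios.

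The mitochondrial ribosome translates the few messenger RNAs of the mitochondrial genome, all of which encode subunits of the respiratory chain or of ATP synthase. Its ribosomal RNAs come from the mitochondrial genome, whereas its proteins are made in the cytosol and imported, so that both genomes must supply their share. It descends from a bacterial ribosome, has lost much RNA and has gained proteins that bacteria lack. In white adipocytes, mitochondria supply ATP and the carbon and glycerol precursors of stored fat.

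Between 44.6% and 65.8% of probes were well above background on HF-DR arrays, against 57.0% to 69.7% on HF-AL arrays and 55.7% to 86.3% on t0 arrays, and the number of arrays limits the precision. All 16 adipocyte markers on the list used to check the tissue passed the filter. Arrays HF-DR 8 and HF-DR 9 stood apart. The median of 5 seminal vesicle and epididymis markers was 6.06 and 5.45 there and -0.49 on HF-DR 7, whereas none of the other 33 arrays exceeded -2.85. On the same HF-DR 8 and 9 the medians of the adipocyte markers were -1.12 and -1.09, and those of the respiratory chain genes were -0.057 and 0.13. The results are therefore given with and without both arrays.

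Dietary restriction was accompanied by higher transcript levels of most mitochondrial ribosomal proteins than free feeding for the same time. Of the 75 members, 64 rose and 4 fell in HF-DR against HF-AL at an adjusted p under 0.05 in limma, and 7 did not pass. Among all 16567 genes tested, 28.8% rose and 36.0% fell by the same rule. The median member difference was 0.42, or 1.34-fold, with quartiles of 0.19 and 0.55 and a whole range from -0.48 to 0.99, beside a median of -0.037 over all genes. The Mrpl median was 0.43 and the Mrps median 0.40. A rise of at least 1.5-fold was seen for 17 members, against a background of 7.98% of all genes. In 23 members every HF-DR array was above every HF-AL array, which held for 6.27% of all genes.

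**Figure D1:**
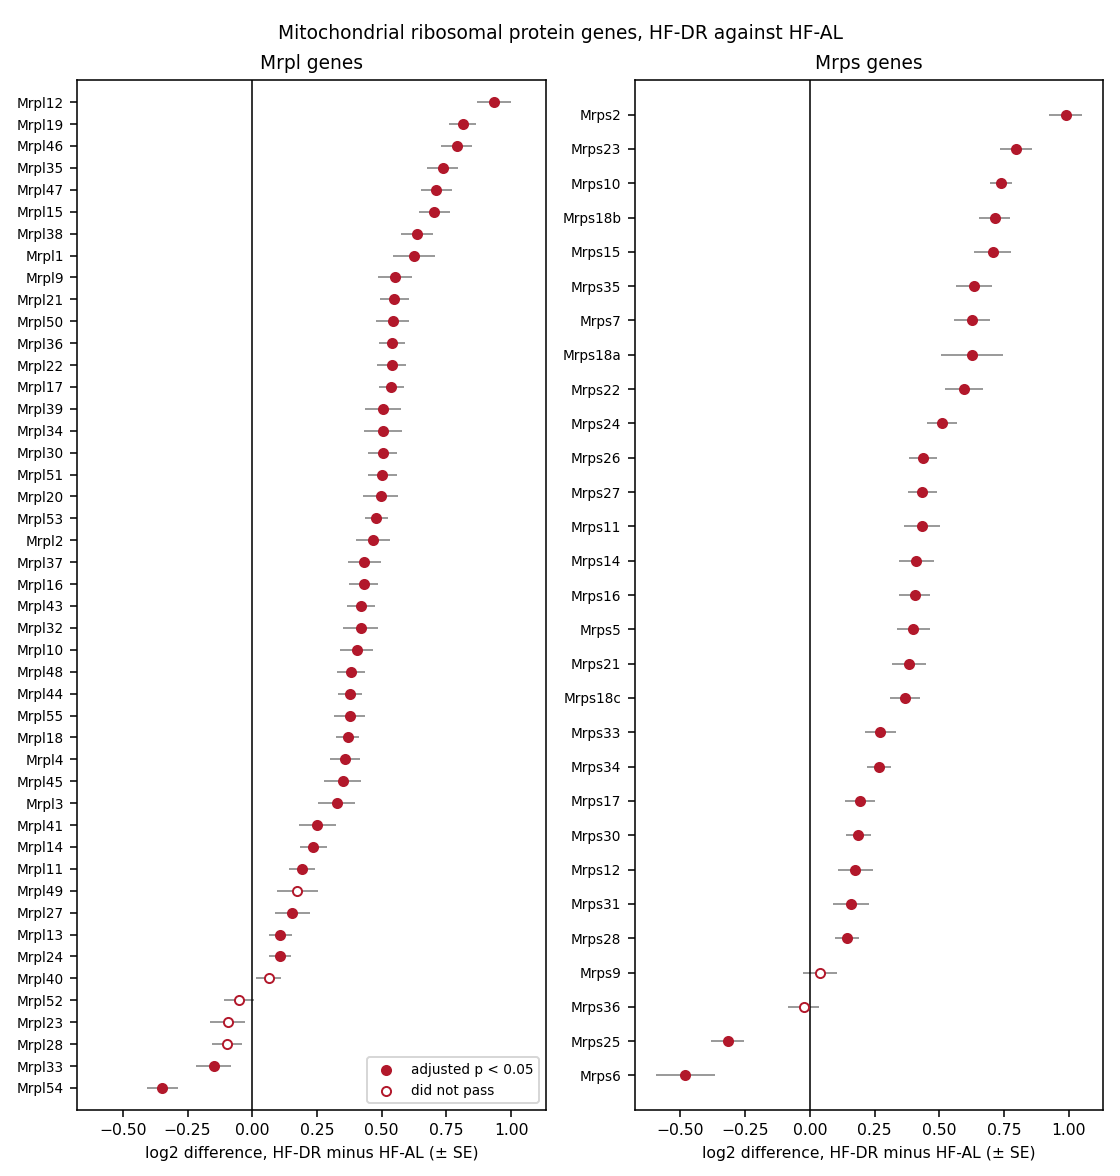
Log2 difference between HF-DR and HF-AL mice (n = 12 each, x axis) for each of the 75 members (y axis), Mrpl genes on the left and Mrps genes on the right, sorted by size. Points are the limma estimates, bars their standard errors, and filled points passed at an adjusted p under 0.05: 64 lie to the right of 0 and 4 to the left.

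Without HF-DR 8 and 9, 64 members rose, 62 of them also risen with all arrays, 3 fell, and the median difference was 0.45. Of all 16567 genes, 5053 rose and 6369 fell in that setting. Every HF-DR array then lay above every HF-AL array for 43 members, beside 11.7% of all genes. HF-DR 8 held the lowest HF-DR value of 34 members and HF-DR 9 of 22. Of the 21 slides 12 carried more than 1 array. With slide as a block 60 members rose, all of them also risen without it, 2 fell and the median was again 0.42. A slide block compares mice within slides only, so arrays alone on their slide did not inform these differences. They were HF-AL 1 to 3 and HF-DR 7 to 12, which include HF-DR 8 and 9. Over all genes 3960 rose and 4766 fell with the block. The 4 rises lost with the block were those of Mrps12, Mrps28, Mrpl13 and Mrpl24, and the 2 falls lost were those of Mrps6 and Mrpl33. On the 3 slides that carried both groups, the median member difference was between 0.31 and 0.46, with 57 to 70 members above 0.

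The largest rise was in Mrps2, a small-subunit protein with a bacterial homologue, measured by a probe at chr2:28292772-28292831 of mm8. Its ratio was 0.49 to 1.05 (median 0.90) in HF-DR mice, against -0.43 to 0.073 (median -0.16) in HF-AL mice and -0.24 to -0.023 (median -0.13) in t0 mice. Every HF-DR mouse was above every mouse of both other groups. The difference from HF-AL was 0.99 ± 0.063 (SE, 1.98-fold, adjusted p = 6.06e-16 in limma), and 2 dimmer probes gave differences in the same direction down to 0.35. Mrpl12, whose protein forms the flexible stalk of the large subunit to which translation factors bind, was read at chr11:120304516-120304575 of mm8. It stood at 0.35 to 1.05 (median 0.66) on the 11 HF-DR arrays that gave a value, HF-DR 9 being left out for an outlying spot, against -0.43 to -0.011 (median -0.24) in HF-AL mice and -0.37 to 0.061 (median -0.21) in t0 mice. Again no HF-DR value overlapped with another group, and the difference was 0.93 ± 0.065, or 1.91-fold (adjusted p = 1.21e-14).

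Mrpl19, a large-subunit protein with a bacterial homologue, had HF-DR values of 0.45 to 0.97 (median 0.77), HF-AL values of -0.24 to 0.070 (median -0.054) and t0 values of -0.20 to 0.023 (median -0.082). Mrps23, which has no bacterial homologue, ranged over 0.36 to 0.90 (median 0.67) in HF-DR mice, against -0.38 to 0.071 (median -0.11) in HF-AL mice and -0.20 to 0.097 (median -0.034) in t0 mice. In both genes the lowest HF-DR mouse was above the highest mouse of either other group. Their differences between HF-DR and HF-AL were 0.81 ± 0.053 for Mrpl19 and 0.80 ± 0.061 for Mrps23 (adjusted p = 1.16e-15 and 8.97e-14).

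Mrpl46, a mitochondria-specific protein of the central protuberance at the top of the large subunit, measured 0.36 to 0.97 (median 0.68) in HF-DR mice, against -0.28 to 0.042 (median -0.080) in HF-AL mice and -0.34 to 0.13 (median -0.10) in t0 mice. For Mrps10, a small-subunit protein shared with bacteria, HF-DR mice gave 0.54 to 0.84 (median 0.71), against -0.17 to 0.094 (median 0.011) in the 11 HF-AL mice with a value and -0.10 to 0.19 (median -0.0047) in t0 mice. Both were separated completely between HF-DR and the other groups. Mrps10 had one of the narrower HF-DR spreads (SD 0.099), and its difference of 0.74 ± 0.043 had the smallest adjusted p among the members (8.52e-17), while Mrpl46 differed by 0.79 ± 0.060 (adjusted p = 6.08e-14).

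The promoter windows of 5 members are printed: those with the largest rise, the largest fall and the largest rise among windows with each of 3 motifs. RefSeq windows on GRCm38.p6, from 250 bases before to 50 after the annotated start, were found for 66 of the 75 members. The windows run 5′ to 3′ in the direction of the gene, at chr2:28467816-28468115 (plus strand) for Mrps2, chr11:120484387-120484686 (plus) for Mrpl12, chr11:88204138-88204437 (plus) for Mrps23, chr6:71823735-71824034 (minus) for Mrpl35 and chr16:92058086-92058385 (plus) for Mrps6. Capitals mark a match to the NRF1 motif (GCGCA, any base, GCGC), read on the other strand, in Mrpl12, 81 bases before the start, to the ETS motif CCGGAAG, read on the other strand, in Mrps23, 15 bases after it, and to the YY1 motif ATGGCGGC in Mrpl35, 26 bases after it. The windows of Mrps2 and Mrps6 held no match.
Mrps2: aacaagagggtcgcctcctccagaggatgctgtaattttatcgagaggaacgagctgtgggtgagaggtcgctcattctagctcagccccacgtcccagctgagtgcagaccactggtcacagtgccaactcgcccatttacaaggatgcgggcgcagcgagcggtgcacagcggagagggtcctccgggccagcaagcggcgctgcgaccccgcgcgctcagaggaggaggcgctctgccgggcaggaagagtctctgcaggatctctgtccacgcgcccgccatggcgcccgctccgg
Mrpl12: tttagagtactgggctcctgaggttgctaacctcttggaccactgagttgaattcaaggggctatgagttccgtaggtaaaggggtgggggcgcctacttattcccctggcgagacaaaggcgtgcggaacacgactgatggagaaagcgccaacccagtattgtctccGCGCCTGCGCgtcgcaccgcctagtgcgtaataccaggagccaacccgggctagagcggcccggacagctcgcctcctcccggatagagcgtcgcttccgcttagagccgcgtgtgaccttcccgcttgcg
Mrps23: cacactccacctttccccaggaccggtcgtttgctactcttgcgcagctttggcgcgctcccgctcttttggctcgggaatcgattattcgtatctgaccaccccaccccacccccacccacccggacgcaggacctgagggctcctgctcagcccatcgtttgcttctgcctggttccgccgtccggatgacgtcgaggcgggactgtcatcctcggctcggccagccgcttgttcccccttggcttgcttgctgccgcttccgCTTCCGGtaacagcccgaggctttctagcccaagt
Mrpl35: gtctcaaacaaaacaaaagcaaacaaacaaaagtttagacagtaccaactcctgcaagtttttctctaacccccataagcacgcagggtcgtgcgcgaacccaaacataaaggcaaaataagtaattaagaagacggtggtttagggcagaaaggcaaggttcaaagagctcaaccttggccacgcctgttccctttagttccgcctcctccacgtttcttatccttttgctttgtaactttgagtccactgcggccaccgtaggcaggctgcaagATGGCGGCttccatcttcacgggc
Mrps6: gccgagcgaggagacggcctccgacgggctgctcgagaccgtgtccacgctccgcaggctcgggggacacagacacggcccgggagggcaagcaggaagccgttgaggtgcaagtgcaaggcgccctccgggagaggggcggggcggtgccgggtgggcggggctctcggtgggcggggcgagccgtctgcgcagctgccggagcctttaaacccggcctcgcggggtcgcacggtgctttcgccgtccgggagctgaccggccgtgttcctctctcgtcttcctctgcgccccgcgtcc

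Over both strands of the 66 windows, the NRF1 motif was found in 12 (18.2%), the ETS motif in 24 (36.4%) and the YY1 motif in 12 (18.2%). Of the windows of all 27025 genes in the table, 5.19% held the first, 9.93% the second and 2.61% the third. At least 1 of these 3 motifs stood in 39 members (59.1%), beside 15.8% of all genes. The ERRalpha motif TCAAGGTCA matched no member and 0.466% of genes, and the E-box CACGTG matched 5 members (7.58%) and 8.09% of genes. No member had matches of different motifs that overlapped. The median difference between HF-DR and HF-AL was 0.43 for the 39 members with one of the 3 motifs and 0.40 for the 27 without. Base composition was not matched, and a match describes letters in the window only. Windows for Mrpl19, Mrpl15, Mrpl38, Mrps35, Mrpl4, Mrps34, Mrps28, Mrpl13 and Mrpl54 were not used here.

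In 23 of the 66 members (34.8%) the window overlapped that of a gene on the opposite strand, which held for 11.9% of all genes. Mrpl46 and Mrps11 were such a pair of 2 members, sharing 141 bases, and rose by 0.79 ± 0.060 and 0.43 ± 0.068. Of the other 21 partner genes 18 were measured, and 13 rose and 2 fell, with a median difference of 0.18. Among all genes tested 28.8% rose and 36.0% fell. Ndufb5, a subunit of respiratory complex I that shares 193 bases with Mrpl47, rose by 0.62, and Mrpl47 by 0.71 ± 0.060. Ptcd2, a mitochondrial RNA-binding protein opposite Mrps27, rose by 0.77, and Sars2, the mitochondrial seryl-tRNA synthetase opposite Mrps12, rose by 0.17. Klc4, a kinesin light chain opposite Mrpl2, and Rab6a, a Golgi trafficking GTPase opposite Mrpl48, fell by 0.34 and 0.15, while Mrpl2 and Mrpl48 rose by 0.47 ± 0.065 and 0.38 ± 0.055.

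By structure, 41 of 48 large-subunit proteins rose and 2 fell (median 0.43), and 23 of 26 small-subunit proteins rose and 2 fell (median 0.41). Proteins with a bacterial homologue counted 43 rises and 2 falls of 48 (median 0.42), and those without one 21 rises and 2 falls of 27 (median 0.38). In each of these classes the members ran from below -0.3 to above 0.7. Differences between the classes were not tested.

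Of the 5 proteins of the stalk and its base, 4 rose. Beside Mrpl12 these were Mrpl53 (0.48 ± 0.045), Mrpl10 (0.40 ± 0.063), the anchor to which the Mrpl12 copies attach, and Mrpl11 (0.19 ± 0.051). Mrpl53 had the narrowest HF-DR spread of all members (SD 0.084), with HF-DR values of 0.25 to 0.57 (median 0.37), against -0.30 to 0.081 (median -0.088) in HF-AL mice and -0.14 to 0.13 (median -0.034) in t0 mice, and the groups did not overlap. The fifth, Mrpl54, fell and is described with the other falls.

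Around the exit of the tunnel through which new chains leave, 5 of 6 proteins rose. Mrpl47 differed by 0.71 ± 0.060, with HF-DR values of 0.41 to 0.97 (median 0.84), against -0.18 to 0.27 (median 0.070) in HF-AL mice and -0.13 to 0.20 (median -0.025) in t0 mice, all HF-DR mice lying above the rest. Mrpl22 (0.54 ± 0.057), Mrpl17 (0.54 ± 0.047) and Mrpl45 (0.35 ± 0.072), which tethers the ribosome to the inner membrane, rose as well. Mrpl24 rose by 0.11 ± 0.044 (adjusted p = 0.0322), but did not pass with slide as a block (0.031, adjusted p = 0.713) or without HF-DR 8 and 9 (0.088, adjusted p = 0.0786). Mrpl23 was at -0.095 ± 0.066 (adjusted p = 0.21). In the central protuberance Mrpl46, Mrpl38 (0.64 ± 0.062), Mrpl48 (0.38 ± 0.055) and Mrpl18 (0.37 ± 0.043) rose. Mrpl40 was at 0.063 ± 0.048 and did not pass (adjusted p = 0.252), its HF-DR values of 0.049 to 0.33 (median 0.17) lying among HF-AL values of -0.11 to 0.33 (median 0.14). Its 2 other probes of the same transcript did rise, by 0.24 (adjusted p = 6.08e-05) and 0.23 (adjusted p = 0.000316), and so did its value in the deposited matrix (0.23, adjusted p = 0.00682).

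Of the remaining large-subunit proteins with a bacterial homologue, Mrpl35 (0.74 ± 0.060), Mrpl15 (0.70 ± 0.059) and Mrpl1 (0.63 ± 0.081) rose most after Mrpl19. Mrpl2, Mrpl9, Mrpl20, Mrpl21, Mrpl30, Mrpl34 and Mrpl36 rose by between 0.47 and 0.55, and Mrpl4, Mrpl16, Mrpl32 and Mrpl55 by between 0.36 and 0.43. Mrpl14 rose by 0.24 ± 0.053, Mrpl27 by 0.15 ± 0.068 and Mrpl13 by 0.11 ± 0.045. With slide as a block Mrpl27 was at 0.27 (adjusted p = 0.00354), and Mrpl13 did not pass (0.13, adjusted p = 0.132); without HF-DR 8 and 9 Mrpl27 was at 0.25. Among those that bacteria lack, Mrpl37, Mrpl39, Mrpl43, Mrpl50 and Mrpl51 rose by between 0.42 and 0.54, and Mrpl41 by 0.25 ± 0.070.

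Mrpl3, a large-subunit protein near the peptidyl transferase centre, had -0.21 to 0.72 (median 0.29) in 11 HF-DR mice, against -0.23 to 0.26 (median -0.016) in HF-AL mice and -0.25 to 0.098 (median -0.072) in t0 mice. The ranges overlapped, and the difference was 0.33 ± 0.070 (adjusted p = 0.000119), or 0.51 with slide as a block. Mrpl44, which resembles a ribonuclease III, measured 0.36 to 0.69 (median 0.53) in HF-DR mice, against -0.021 to 0.35 (median 0.18) in HF-AL mice and 0.0091 to 0.39 (median 0.16) in t0 mice. The lowest HF-DR mouse was just above the highest HF-AL mouse and just below the highest t0 mouse, with a difference from HF-AL of 0.38 ± 0.047 (adjusted p = 7.80e-09).

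In the small subunit, Mrps12, a protein of the decoding centre, reached -0.083 to 0.58 (median 0.13) in HF-DR mice, against -0.50 to 0.16 (median -0.0016) in HF-AL mice and -0.16 to 0.16 (median 0.027) in t0 mice. The groups overlapped widely and the difference was 0.18 ± 0.066 (adjusted p = 0.0201). Its highest HF-DR values, 0.58 and 0.48, were those of HF-DR 9 and HF-DR 8, and without both arrays the difference was 0.10 and did not pass (adjusted p = 0.112). With slide as a block it was 0.14 (adjusted p = 0.252).

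Mrps5, a small-subunit protein with a bacterial homologue, gave -0.013 to 0.43 (median 0.25) in HF-DR mice, against -0.37 to 0.11 (median -0.14) in HF-AL mice and -0.34 to 0.18 (median -0.024) in t0 mice. Mrps22, which bacteria lack, gave 0.17 to 0.96 (median 0.72) in HF-DR mice, against -0.065 to 0.33 (median 0.065) in HF-AL mice and -0.18 to 0.46 (median 0.13) in t0 mice. Both overlapped with HF-AL at the edges only, and they differed by 0.40 ± 0.064 and 0.60 ± 0.074 (adjusted p = 1.41e-06 and 8.58e-09). Of the other small-subunit proteins, Mrps15 (0.71 ± 0.072), Mrps35 (0.63 ± 0.069) and Mrps7 (0.63 ± 0.069) rose most. Mrps11, Mrps14, Mrps16, Mrps21, Mrps24, Mrps26 and Mrps27 rose by between 0.38 and 0.51, Mrps33 and Mrps34 both by 0.27, and Mrps17, Mrps28 and Mrps31 by between 0.14 and 0.19. With slide as a block Mrps28 did not pass against HF-AL (0.060, adjusted p = 0.501) or t0 (0.067, adjusted p = 0.389), and without HF-DR 8 and 9 the Mrps31 difference from HF-AL was 0.24.

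The mitochondrial S18 family has 3 members at different places of the ribosome, S18b and S18c in the small subunit and S18a in the large one. Mrps18b was at 0.38 to 1.10 (median 0.70) in HF-DR mice, against -0.16 to 0.16 (median -0.013) in HF-AL mice and -0.22 to 0.14 (median -0.062) in t0 mice. Mrps18c was at 0.065 to 0.45 (median 0.35) in HF-DR mice, against -0.55 to 0.085 (median -0.028) in HF-AL mice and -0.25 to 0.18 (median -0.013) in t0 mice. Mrps18b was separated completely and Mrps18c overlapped at the edge, and the differences from HF-AL were 0.71 ± 0.061 and 0.37 ± 0.058 (adjusted p = 1.13e-12 and 1.01e-06).

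Mrps18a was at 0.090 to 1.72 (median 0.35) in HF-DR mice, against -0.28 to 0.14 (median -0.15) in HF-AL mice and -0.33 to 0.066 (median -0.15) in t0 mice, and had the widest HF-DR spread of the 75 members (SD 0.50). Its highest values were 1.72 on HF-DR 8 and 1.30 on HF-DR 9, and the other 10 HF-DR mice lay between 0.090 and 0.69. The difference was 0.63 ± 0.12 (adjusted p = 2.24e-05), and 0.43 ± 0.059 without those arrays (adjusted p = 7.86e-08). It was thus among the highest rises with them and near the median member without them. With slide as a block it was 0.24 against HF-AL (adjusted p = 0.0103) and 0.28 against t0 (adjusted p = 0.00139). Mrps30, another large-subunit protein despite its name, was at -0.19 to 0.36 (median 0.13) in HF-DR mice, against -0.30 to 0.10 (median -0.089) in HF-AL mice and -0.12 to 0.13 (median 0.057) in t0 mice, a difference of 0.19 ± 0.049 (adjusted p = 0.00109) with overlapping ranges.

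**Figure D2:**
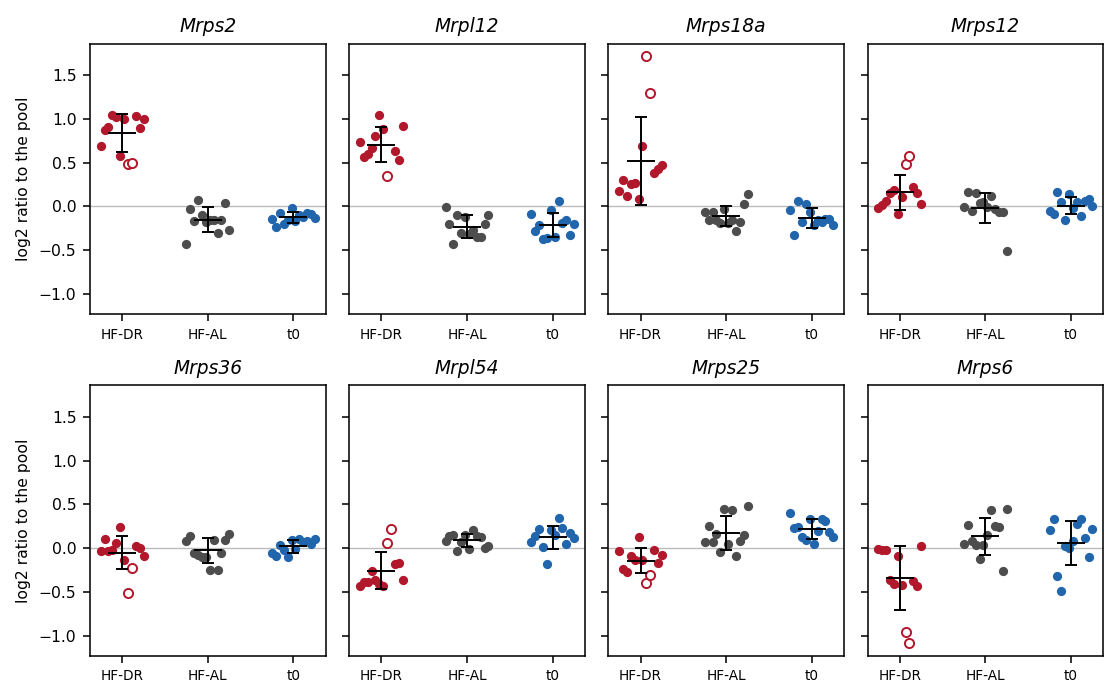
Log2 ratio to the pool (y axis) of 8 members in each HF-DR, HF-AL and t0 mouse (x axis, n = 12 per group). Points are mice, open points are arrays HF-DR 8 and 9 (HF-DR 9 has no Mrpl12 value), and black bars are the mean ± SD: in Mrps2 and Mrpl12 all HF-DR points lie above the rest. Among HF-DR mice the open points are the highest in Mrps18a, Mrps12 and Mrpl54. They are the lowest in Mrps2, Mrpl12, Mrps36, Mrps25 and Mrps6.

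Mrps36 carries a ribosomal name but its protein is now assigned to the 2-oxoglutarate dehydrogenase complex of the citric acid cycle. It was at -0.51 to 0.25 (median -0.029) in HF-DR mice, against -0.25 to 0.16 (median -0.054) in HF-AL mice and -0.099 to 0.10 (median 0.044) in t0 mice. The groups overlapped throughout and the difference was -0.024 ± 0.059 (adjusted p = 0.734). Its lowest HF-DR values, -0.51 and -0.23, were those of HF-DR 8 and 9, and without both arrays the difference was 0.039 (adjusted p = 0.488). A slightly dimmer probe of the same transcript differed by 0.16 (adjusted p = 0.0177), so its probes did not give the same call.

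Mrps6, a small-subunit protein with a bacterial homologue, had the largest fall. HF-DR mice were at -1.09 to 0.030 (median -0.37), against -0.26 to 0.44 (median 0.12) in HF-AL mice and -0.49 to 0.33 (median 0.096) in t0 mice. The ranges overlapped, and the lowest values, -1.09 and -0.96, were those of HF-DR 9 and HF-DR 8. It fell by 0.48 ± 0.11 (SE, adjusted p = 0.000329), by 0.34 without those arrays (adjusted p = 0.00137), and by 0.20 with slide as a block, where it did not pass (adjusted p = 0.276). A second probe fell by 0.42 (adjusted p = 0.000859). Slc5a3, a myo-inositol transporter whose gene shares its locus with Mrps6, fell by 0.76 ± 0.080 (adjusted p = 6.46e-10), and whether the Mrps6 probes also read its transcripts was not tested.

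Mrpl54, a mitochondria-specific protein at the base of the stalk, was at -0.43 to 0.22 (median -0.36) in HF-DR mice, against -0.028 to 0.21 (median 0.10) in HF-AL mice and -0.18 to 0.34 (median 0.14) in t0 mice. The highest HF-DR values, 0.22 and 0.060, were those of HF-DR 9 and 8, and the other 10 mice, none above -0.17, lay below every HF-AL mouse. Its fall was 0.35 ± 0.062 (adjusted p = 7.30e-06), and 0.43 ± 0.047 without both arrays (adjusted p = 7.37e-10). Mrps25, a small-subunit protein that bacteria lack, was at -0.40 to 0.13 (median -0.13) in HF-DR mice, against -0.094 to 0.48 (median 0.12) in HF-AL mice and 0.044 to 0.41 (median 0.21) in t0 mice, overlapping both. It fell by 0.32 ± 0.063 (adjusted p = 3.62e-05), whereas a much dimmer second probe at -0.058 did not pass (adjusted p = 0.458). The lowest HF-DR values of Mrps25, -0.40 and -0.31, were those of HF-DR 8 and 9. Without both arrays it fell by 0.28 (adjusted p = 0.000209).

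Mrpl33, a short protein of the large subunit with a bacterial homologue, was at -0.54 to -0.076 (median -0.23) in HF-DR mice, against -0.43 to -0.0057 (median -0.061) in HF-AL mice and -0.53 to -0.0088 (median -0.16) in t0 mice. Its ranges overlapped almost fully. The fall of 0.15 ± 0.067 only just passed (adjusted p = 0.0489), did not pass without HF-DR 8 and 9 (-0.11, adjusted p = 0.144), and had a positive sign of 0.00088 with slide as a block and 0.12 in the deposited matrix.

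Beside Mrpl40, Mrpl23 and Mrps36, the members that did not pass were Mrpl49 (0.17 ± 0.079, adjusted p = 0.0514), Mrps9 (0.039 ± 0.065), Mrpl52 (-0.050 ± 0.058) and Mrpl28 (-0.096 ± 0.058). Without HF-DR 8 and 9 both Mrpl49 (0.26, adjusted p = 0.00128) and Mrps9 (0.12, adjusted p = 0.0291) rose. With slide as a block neither Mrpl49 (0.097, adjusted p = 0.409) nor Mrps9 (0.10, adjusted p = 0.156) passed. In the deposited matrix Mrpl49 rose (0.28, adjusted p = 0.0125) and Mrps9 did not pass (0.11, adjusted p = 0.213). Mrpl52, below 0 in the main setting, rose in that matrix against HF-AL (0.17, adjusted p = 0.0236) and t0 (0.22, adjusted p = 0.00367). Mrpl28 did not pass against HF-AL there (0.12, adjusted p = 0.277). The other Mrpl49 probes, at 0.070 and 0.058, did not pass. Several probes passed the filter for 29 members, and their signs differed in 5: Mrpl27, Mrpl28, Mrpl35, Mrps9 and Mrps36. In Mrpl27 the brightest probe rose by 0.15 and a dimmer one fell by 0.12. In Mrps9 the probes ranged from -0.10 to 0.14 with calls in both directions. The brightest Mrpl35 probe rose by 0.74, another by 0.19, and the dimmest was at -0.050. Dimmer probes of Mrpl1 (0.013), Mrps5 (0.012) and Mrpl38 (0.14) did not pass against HF-AL, although the probes that stood for these genes rose.

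Against the t0 mice, the level before the 12 weeks, 59 members rose and 3 fell in HF-DR, and 13 did not pass. Of all genes, 28.7% rose and 33.0% fell in this comparison. The median member difference was 0.42 (range -0.40 to 0.96), beside -0.014 over all genes. In 21 members every HF-DR array was above every t0 array (7.53% of all genes), and 15 rose at least 1.5-fold (8.13% of all genes). The comparison shares its HF-DR mice with the one against HF-AL. All 59 members that rose also rose against HF-AL, and the 3 that fell, Mrps6, Mrpl54 and Mrps25, also fell against HF-AL. With all arrays Mrps30, Mrps12, Mrps31, Mrpl27 and Mrpl24 rose against HF-AL only, which does not show that the differences were unequal, and Mrpl33 fell against HF-AL only. Mrps30 (0.13), Mrps31 (0.16) and Mrpl27 (0.24) rose against t0 as well without HF-DR 8 and 9 (adjusted p = 0.00934, 0.0153 and 1.76e-05). Mrps12 and Mrpl24 did not pass against t0 there.

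The largest rises against t0 were in Mrps2 (0.96 ± 0.063), Mrpl12 (0.91 ± 0.065) and Mrpl19 (0.83 ± 0.053), with adjusted p = 1.10e-15, 2.02e-14 and 6.06e-16 in limma. Mrps23 rose by 0.71 ± 0.061, Mrpl46 by 0.76 ± 0.060 and Mrps10 by 0.70 ± 0.042. The falls were 0.40 ± 0.11 in Mrps6, 0.38 ± 0.062 in Mrpl54 and 0.36 ± 0.063 in Mrps25. The Mrps6 fall against t0 did not pass with slide as a block (-0.15, adjusted p = 0.350) or in the deposited matrix (-0.22, adjusted p = 0.156), and was 0.27 without HF-DR 8 and 9 (adjusted p = 0.0116). Of the fixed set, Mrps18b rose by 0.73 ± 0.061, Mrps18a by 0.65 ± 0.12, Mrps22 by 0.56 ± 0.074, Mrpl3 by 0.38 ± 0.070, Mrpl44 by 0.36 ± 0.047, Mrps18c by 0.33 ± 0.058 and Mrps5 by 0.29 ± 0.064. Mrps12 (0.15 ± 0.066, adjusted p = 0.0504), Mrps30 (0.088 ± 0.049), Mrpl33 (-0.077 ± 0.067) and Mrps36 (-0.071 ± 0.059) did not pass. Without HF-DR 8 and 9, 63 members rose, 59 of them shared, 3 fell and the median was 0.43. Of all 16567 genes, 5024 rose and 5825 fell in that setting. Every HF-DR array was then above every t0 array for 46 members, beside 13.2% of all genes. On the 6 slides with both groups the median member difference was between 0.23 and 0.52, and with slide as a block 59 members rose (58 shared) and 2 fell, Mrps28 no longer passing and Mrpl27 passing instead (0.23, adjusted p = 0.00403). Over all genes 4384 rose and 4971 fell with the block. Mrpl41, which rose by 0.18 ± 0.070 against t0, was at 0.32 with the block and 0.29 without HF-DR 8 and 9.

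Between HF-AL and t0, which differ by 12 further weeks of free feeding, no member passed in limma, and 3 had an unadjusted p under 0.05. Of all 16567 genes 107 passed, or 0.646%. The member differences ran from -0.15 to 0.13 with a median of -0.019, beside 0.0060 over all genes. The smallest adjusted p-values were those of Mrpl37 (-0.15 ± 0.063, adjusted p = 0.276) and Mrpl22 (0.13 ± 0.057, adjusted p = 0.285). Mrpl37 was at -0.48 to 0.0024 (median -0.15) in HF-AL mice, against -0.22 to 0.17 (median -0.015) in t0 mice, and Mrpl22 at -0.27 to 0.28 (median -0.027) in HF-AL mice, against -0.30 to -0.053 (median -0.18) in t0 mice, both with overlapping ranges. Within the 9 slides that carried both groups the median member difference lay between -0.083 and 0.081.

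**Figure D3:**
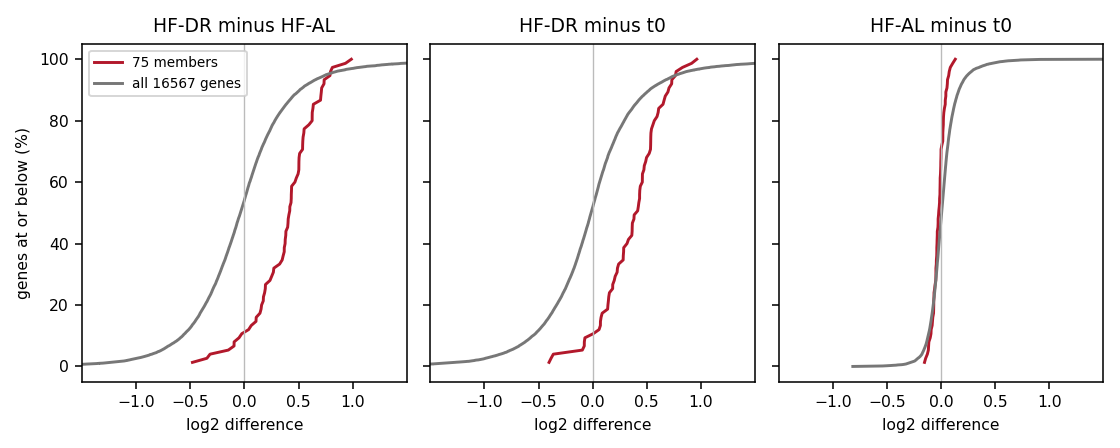
Cumulative share of genes (y axis, percent) at or below a given log2 difference (x axis, cut at -1.5 and 1.5) for the 75 members and all 16567 genes in the 3 comparisons. The member curve lies to the right of that of all genes for most of its length in both HF-DR comparisons (medians 0.42 and 0.42), and in HF-AL against t0 it stays between -0.15 and 0.13.

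Per mouse, the median ratio of the 75 members was between 0.29 and 0.46 on 10 HF-DR arrays and 0.033 and 0.10 on HF-DR 8 and 9, against -0.14 to 0.053 on HF-AL arrays and -0.15 to 0.056 on t0 arrays. The 10 HF-DR arrays lay above all arrays of both other groups, and so did HF-DR 9, whereas HF-DR 8 lay within their range. The spread of a member between mice was a median SD of 0.19 in HF-DR, 0.14 in HF-AL and 0.11 in t0, beside 0.19, 0.16 and 0.13 over all genes. On HF-DR 8 and 9 the median of the cytosolic ribosomal proteins was 0.62 and 0.40, the highest of the 36 arrays.

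**Figure D4:**
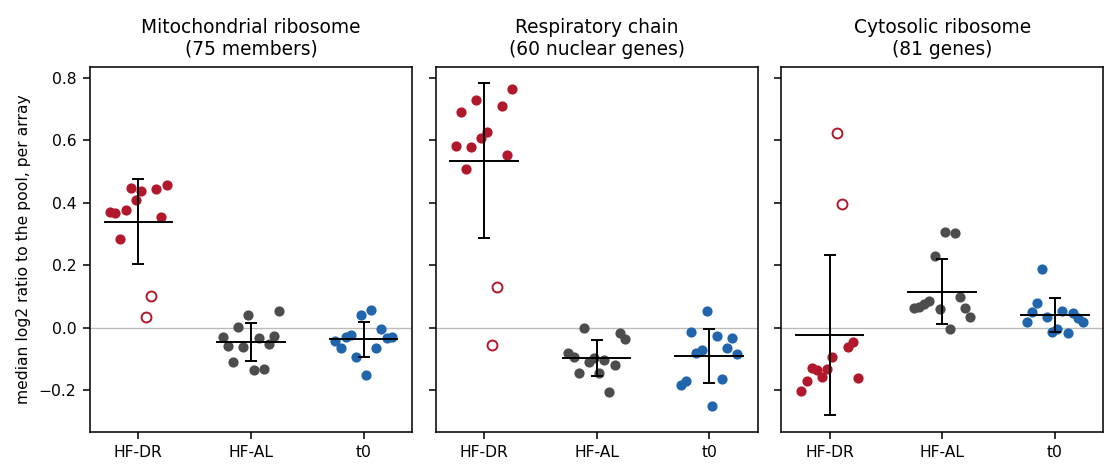
Median log2 ratio to the pool per array (y axis) over the 75 members, 60 nuclear respiratory chain genes and 81 cytosolic ribosomal proteins, for HF-DR, HF-AL and t0 mice (x axis, n = 12 each). Points are mice, open points are HF-DR 8 and 9, and bars are the mean ± SD: the open points are the lowest of their group for the members (0.033 and 0.10) and the highest for the cytosolic proteins (0.62 and 0.40).

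The bulk RNA cannot tell fewer cells of a type apart from less RNA per cell. In HF-DR against HF-AL, 2 of 16 adipocyte markers rose and 9 fell, 9 of 12 macrophage markers fell and none rose, and 11 of 12 preadipocyte and fibroblast markers fell and none rose. Among endothelial markers 1 of 8 rose and 4 fell, among mesothelial markers 5 of 7 fell, and of the T, NK and B cell markers 3 of 8 rose. By the same rule 28.8% of all genes rose and 36.0% fell. Without HF-DR 8 and 9, 4 adipocyte markers rose and 8 fell (median -0.26, and -0.44 with them), and 1 macrophage marker rose. Over all 16567 genes 5053 rose and 6369 fell without both arrays. Per array the median of the fibroblast markers was -1.42 to -0.68 in HF-DR mice, against 0.067 to 0.36 in HF-AL mice and -0.035 to 0.41 in t0 mice. For the macrophage markers it was -1.31 to -0.41 in HF-DR mice, against -0.23 to 0.19 in HF-AL mice and -0.22 to 0.51 in t0 mice.

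Of 7 brown adipocyte markers measured, 6 rose and 1 fell, beside 28.8% and 36.0% of all genes. Their array median was 0.47 to 1.85 in HF-DR mice, against -0.83 to -0.22 in HF-AL mice and -1.10 to -0.18 in t0 mice. Among them were Elovl3, a fatty acid elongase (4.50), Cidea, a lipid droplet protein (3.26), and Cox8b, a cytochrome oxidase subunit (2.83), while Prdm16, a transcriptional regulator, fell by 0.35. Ucp1, the uncoupling protein that defines brown fat, was well above background on 6 HF-DR, 0 HF-AL and 3 t0 arrays and did not pass the filter. Of 5 seminal vesicle and epididymis markers 3 rose, and 1 did without HF-DR 8 and 9. The part of any of these in the rise of the members was not tested.

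The other genes of mitochondrial translation were mostly higher or not called. In HF-DR against HF-AL, the shares of all genes to set beside each list below were 28.8% rising and 36.0% falling. Of 7 further proteins of the mitochondrial ribosome that carry other names on the array, 5 rose in HF-DR against HF-AL and 1 fell (median 0.28). The risers with the smallest adjusted p were Ptcd3, a small-subunit protein (0.74 ± 0.061), Gadd45gip1 (0.35 ± 0.043) and Mrpl57 (0.37 ± 0.049), both of the large subunit. Dap3, a GTP-binding protein of the small subunit, fell by 0.13 (adjusted p = 0.0424), but without HF-DR 8 and 9 5 genes of this list rose and 0 fell. Of 13 translation factors 10 rose and none fell (median 0.27), with the smallest adjusted p-values in Gfm1, the elongation factor that moves the ribosome along (0.73 ± 0.069), the initiation factor Mtif3 (0.55 ± 0.056) and Oxa1l, which inserts the products into the inner membrane (0.51 ± 0.053). Of 20 aminoacyl-tRNA synthetase and amidotransferase genes 13 rose and none fell (median 0.22), with the smallest adjusted p-values in Yars2 (0.72 ± 0.054), Rars2 (0.61 ± 0.046) and Qrsl1 (0.63 ± 0.054).

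Assembly and rRNA modification factors counted 15 rises and 2 falls among 26 (median 0.26). Trub2, a pseudouridine synthase family protein, had a larger difference than any of the 75 members (1.69 ± 0.13), Fastkd2, a mitochondrial RNA-binding protein, rose by 0.66 ± 0.049 and Mrm3, which methylates the 16S ribosomal RNA, by 0.66 ± 0.071. Ngrn and Rpusd4, both involved in 16S rRNA upkeep, fell by 0.20 and 0.12. Of 7 transcription and mRNA-binding genes 4 rose and 1 fell (median 0.28). Lrpprc, which stabilises mitochondrial mRNAs, rose by 0.50 ± 0.051, Tfb2m, the initiation factor of mitochondrial transcription, by 0.81 ± 0.083 and the elongation factor Tefm by 0.65 ± 0.097, while the termination factor gene Mterf1a fell by 0.27 ± 0.054.

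The mitochondrial ribosome's own templates were represented by 3 genes on the array, and all rose: CYTB (1.01 ± 0.11), COX2 (0.98 ± 0.12) and ND4L (0.81 ± 0.098). Of 60 nuclear genes for respiratory chain subunits 55 rose and none fell (median 0.69) and a highest difference of 1.08, and the smallest adjusted p-values were those of Atp5pb (0.86 ± 0.066), Cox7c (0.86 ± 0.065) and Sdhd (0.77 ± 0.060). By contrast, 5 of 81 cytosolic ribosomal proteins and their paralogues rose and 34 fell (median -0.15), beside 28.8% and 36.0% of all genes. With all arrays the share that fell was thus close to that of all genes. Without HF-DR 8 and 9, 61 fell (median -0.24), beside 6369 of all 16567 genes. Rpl27a, Rpl37a and Rps12 were among those that fell (by 0.58, 0.58 and 0.61). None of these lists had a gene that passed between HF-AL and t0 in limma.

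**Figure D5:**
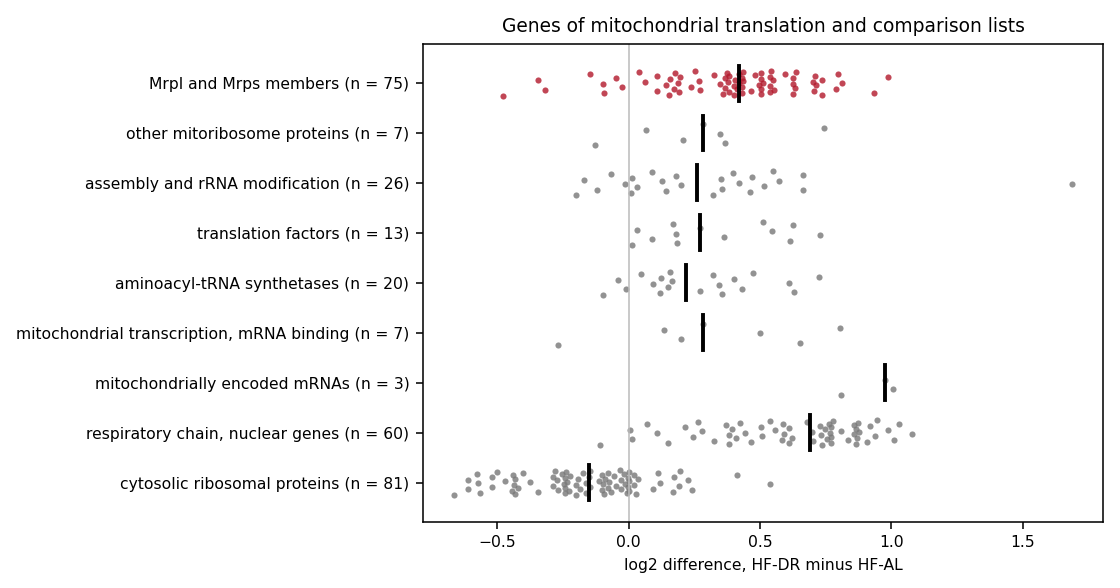
Log2 difference between HF-DR and HF-AL mice (x axis, n = 12 each) for each gene of the 75 members and of 8 other lists (y axis). Points are genes and black bars list medians: the members have a median of 0.42, the nuclear respiratory chain genes 0.69 and the cytosolic ribosomal proteins -0.15.

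Against t0 the same lists gave 6 rises and 1 fall of 7 for the other mitochondrial ribosome proteins, 9 rises and no fall of 13 for translation factors, and 9 rises and no fall of 20 for the synthetases. Assembly factors counted 13 rises and 2 falls of 26, the transcription list 5 rises and 1 fall of 7, and the respiratory chain 55 rises and no fall of 60. The cytosolic ribosomal proteins had 8 rises and 23 falls of 81 (median -0.071), beside 28.7% and 33.0% of all genes. Their falls were thus no more frequent than over all genes. Without HF-DR 8 and 9 they had 6 rises and 45 falls (median -0.16), beside 5024 and 5825 of all 16567 genes.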

How the data were processed

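The deposited intensity values, per the file headers, were linear mean spot signals and median local backgrounds of both channels from Agilent Feature Extraction 9.5.3.1, and the flags, processed signals and probe positions (mm8) came from the same scans. The deposited series matrix held log2 values of 22510 probes that tracked Cy5 on each array (r of 0.989 or more), and the steps behind it are not given in the sources used here.

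Background was corrected with normexp in limma 3.58.1 (R 4.3.3, data.table, version 1.17.8; offset 50). The 84 spots with a net signal under -50 were left out, loess with 4 iterations normalised ratios within arrays, with control spots at weight 0, and spots marked as outliers (0.498%) were dropped. Probes were kept with Cy5 well above background on at least 9 of the 12 arrays of a group, and the probe with the highest mean intensity stood for its gene. A single limma fit over 36 arrays gave a mean per group, with two-sided tests, Benjamini-Hochberg adjustment over 16567 genes and a threshold of 0.05. The fit was tested on simulated data.

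The members, the gene lists and the tests were chosen with earlier results of these data known. Values by group are given for the 6 largest rises, the 4 largest falls and a fixed set of 12 members. They are also given for Mrpl22, Mrpl37, Mrpl40, Mrpl47 and Mrpl53. Up to 3 genes with the smallest adjusted p, with up to 2 going the other way, are named of the other lists. The alternatives were other background corrections, normalizations, filters and probe rules, the deposited matrix, slide or replicate number as a block, and arrays left out. The alternative without HF-DR 8 and 9 was chosen after seeing the data. Genes were named through RefSeq (GRCm38.p6). The labels give 1 mouse per array, so p-values measure the spread between mice together with that between arrays and slides.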

Additional observations from a re-analysis of the deposited data

How the results depend on the processing

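In every one of the 13 alternatives run, including that without HF-DR 8 and 9, between 60 and 67 members rose in HF-DR against HF-AL and between 57 and 64 against t0. No member passed between HF-AL and t0 in the 12 of them run for that comparison. Over the 13 alternatives, 39.8% to 70.0% of all genes changed in HF-DR against HF-AL and 37.65% to 68.4% against t0. Falls in HF-DR against HF-AL numbered 4 in the main setting. They numbered 2 in the deposited matrix, with median centring and with slide as a block, and 6 with the processed signals. Against t0 they numbered 2 in the same 3 settings and 5 with the processed signals, in place of 3. All other alternatives gave 3 or 4 falls against HF-AL and 3 against t0. The median member difference from HF-AL was 0.55 in the deposited matrix. Mrpl33 changed sign there (0.12), with median centring (0.033) and with slide as a block (0.00088), and Mrps6 no longer passed under these 3 (adjusted p = 0.148, 0.0870 and 0.276); the cause was not tested. Over all genes, HF-AL against t0 gave 107 calls in the main setting. This became 207 with the processed signals, 69 with median centring, 530 with scaling between arrays and 70 without a filter. It was 70 without the 4 arrays with the lowest shares of bright probes. Without 6 arrays set aside for tract transcripts, HF-DR 7, 8 and 9 and HF-AL 5, 7 and 9, it was 239. Of these, HF-AL 5, 7 and 9 did not stand out, with seminal vesicle and epididymis marker medians of -5.50, -5.10 and -5.68. The risen share of the calls was 67.3% in the main setting, but 44.9% with the processed signals and 44.1% in the matrix.

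Over all alternatives, 26 members were followed: the 6 largest rises, the 4 falls, the fixed set and those without a call. Against HF-AL they gave 302 values that kept their direction and call, 13 that lost the call and 10 that gained one. Another 3 were called in the main setting and changed sign (Mrpl33), and 10 changed sign where the main setting made no call. Among those 10 was Mrpl52 in the deposited matrix, where limma called it as a rise (0.17, adjusted p = 0.0236). Against t0 these were 309, 3, 14, 0 and 12.

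The labels do not say that a replicate number marks a shared batch or pairs mice, and mice were not treated as pairs. Deviations correlated between -0.14 and 0.40 for HF-DR with HF-AL (median 0.20, 9 of 12 pairs over 0.1), -0.19 and 0.040 for HF-DR with t0, and -0.47 and 0.29 for HF-AL with t0. No differently numbered mice are set beside these pairs, so the correlations cannot decide whether a number marks a batch. With a replicate block, 63 members rose and 3 fell against HF-AL, and 60 rose and 3 fell against t0. Over all genes 4746 rose and 5945 fell against HF-AL, and 4770 rose and 5479 fell against t0. The single dye orientation leaves dye effects unmeasured, and slides with HF-DR mice alone cannot be told apart from the group.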
